A study of Mus musculus with 6 samples.

Results

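On 6 Affymetrix arrays, 10 genes of the circadian clock and its outputs were followed in the mouse embryonic fibroblast line NIH3T3. They were taken by name as the core loop genes Per1, Per2, Cry1, Cry2, Arntl (also called Bmal1) and Clock, the nuclear receptors Nr1d1 and Nr1d2, and the output genes Nfil3 and Noct. All 10 were on the array, among 18193 genes with a probe set of their own, and 17 of 45101 probe sets were paired with 1 of them alone. A further probe set was shared by Noct with Sgip1 and Cog6 and was set aside. The arrays were from cells with mutant LPAR1 at 0, 60 and 120 minutes and from cells with wild-type LPAR1 at the same times, with 1 array for each genotype and time. LPAR1 is a receptor for lysophosphatidic acid, a growth-stimulating lipid of serum. The labels give neither the treatment that starts at 0 minutes, nor the mutation, nor the number of cultures or clones. With 1 array for each genotype and time, no p-value measures a spread between replicates. In the main fit the error of a gene starts from how far its genotypes depart from parallel time courses. That departure may be technical or a true difference in time response. It is then shrunk towards a trend over all genes tested, which weighs more (7.78 prior against 2 residual degrees of freedom). Each SE and p-value below thus rests mostly on all genes and less on the gene's own arrays. Differences between genotypes also cannot be told apart from differences between derived lines. A lower signal from fewer cells using a gene and from less RNA per cell cannot be told apart either.

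The mammalian clock is a feedback loop of transcription. The proteins CLOCK and BMAL1 (from Arntl) bind E-boxes and switch on the Per and Cry genes, whose proteins return to the nucleus and repress CLOCK and BMAL1. A further loop runs through the nuclear receptors REV-ERB alpha and beta (from Nr1d1 and Nr1d2), which repress Arntl and are themselves E-box targets. Cultured fibroblasts carry this loop, and a pulse of serum or of many signalling agents is known to induce Per1 and Per2 within the hour and to set the cells to a common phase.

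Values are probe-set intensities on a linear scale. Differences were computed as log2(intensity + 16), and folds are on that scale, which understates the changes of dim genes. Each gene was read from its brightest probe set. Genes whose mean intensity lay under 39.2, the 40th percentile, were not tested. Of the 10916 that remained, all 10 clock genes were part. Levels of different probe sets cannot be compared with each other, so only changes are compared between genes. In the fit with genotype and time as additive terms, a time difference rests on 2 arrays per time and a genotype difference on 3 arrays per genotype. Passing means a Benjamini-Hochberg adjusted p under 0.05 over all genes tested (limma). All 10 fibroblast markers lay above the filter level, with a summed intensity from 58281 to 59043 in mutant and from 58850 to 60194 in wild-type cells. The epithelial, leukocyte, endothelial and muscle markers, 15 in all, summed to at most 488.5, 119, 97.8 and 103 on any array, and 10 of the 15 lay below the filter level. Cdh1, Epcam, Krt5, Adgre1 and Cdh5 lay above it. The sums cover different probe sets and lists of unlike length, so their sizes are not compared between cell types. Actb carries control probe sets at both ends of its transcript, and the 5′ signal over the 3′ signal was 0.505 at 0, 0.683 at 60 and 0.661 at 120 minutes in mutant cells, and 0.579, 0.650 and 0.699 in wild-type cells. The ratio was therefore lowest at 0 minutes in both genotypes, and its part in the time differences below was not tested. That of Gapdh lay between 0.954 and 1.03.

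**Figure D1:**
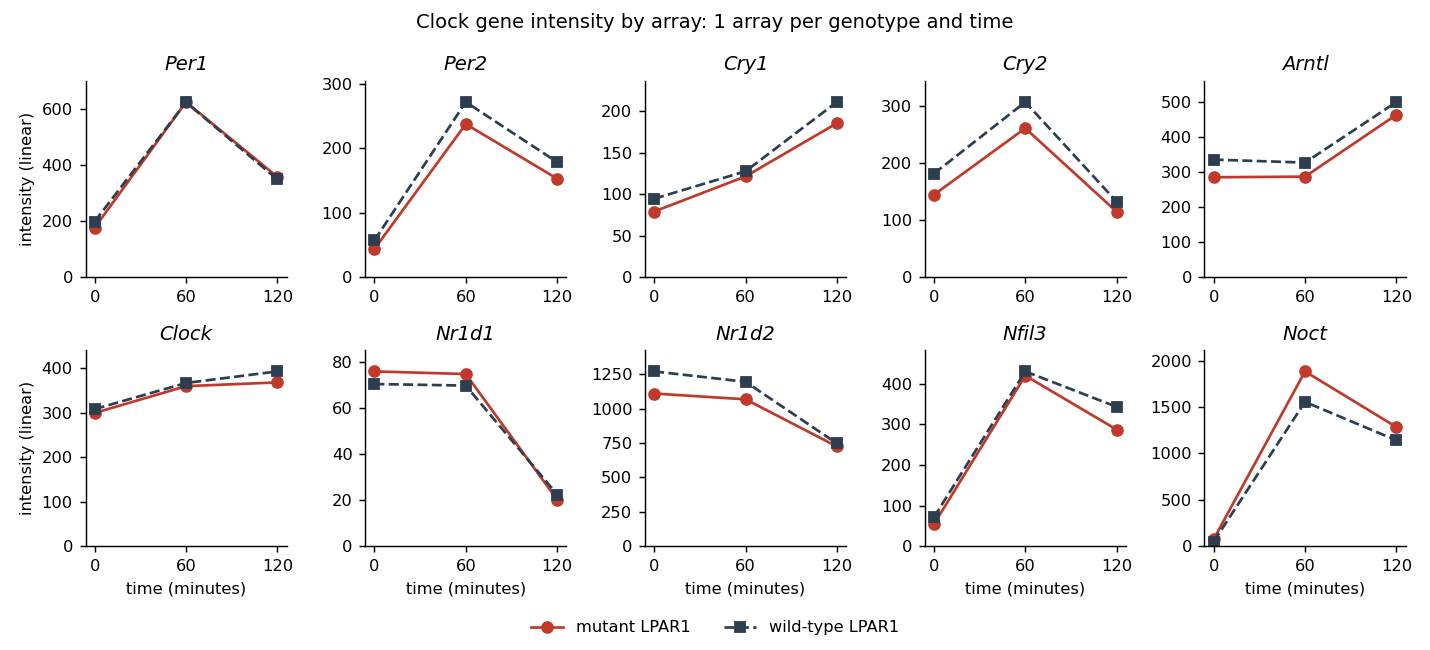
Intensity (linear, each panel with its own axis from 0) of the brightest probe set of each of the 10 clock genes against time in minutes, for mutant (circles, solid line) and wild-type LPAR1 (squares, dashed line), with each point 1 array. In both genotypes 5 genes were highest at 60 minutes (Per1, Per2, Cry2, Nfil3, Noct), 3 at 120 minutes (Cry1, Arntl, Clock) and 2 at 0 minutes (Nr1d1, Nr1d2).

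Most clock genes rose in the first hour, and most fell in the second. At 60 against 0 minutes, 7 of the 10 rose and 0 fell (0 also fell at an unadjusted p of 0.05, limma), against 7.34% higher and 10.7% lower of all genes tested. Of the 7, Clock rested on 1 of 4 probe sets that disagreed. At 120 against 60 minutes, 2 rose and 7 fell, against 10.2% higher and 15.0% lower of all genes. At 120 against 0 minutes, 7 stood higher and 3 lower, against 16.2% and 30.8% of all genes. Clock is again among the 7, and the mean of its 4 probe sets did not pass (adjusted p = 0.22, limma). The median log2 difference of the 10 genes was 0.60 for the first hour, -0.54 for the second hour and 0.74 for the net change, where all genes tested had medians of -0.071, -0.019 and -0.091. The 3 contrasts share arrays, so they are given side by side and are not separate evidence. The 10 genes were chosen with earlier results of these data known, so the shares describe them and are no test of clock genes. The 2 genotypes moved the same way in 9 of the 10 genes in the first hour and in all 10 in the second hour and over the whole period. The share of all genes that did so was not computed. Across all genes tested, deviations of the arrays from their genotype mean correlated between genotypes at r from 0.756 to 0.911. The agreement is therefore not read as a trait of the clock genes.

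**Figure D2:**
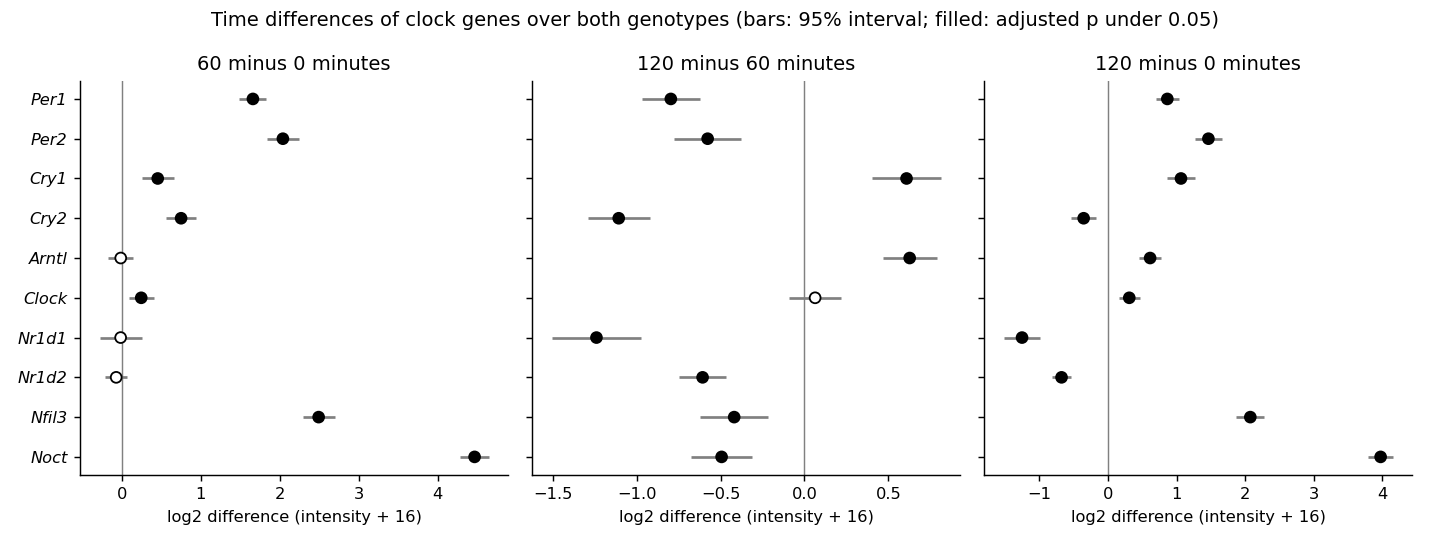
Log2 difference (x axis, intensity + 16) between times for each of the 10 clock genes, over both genotypes, with bars for the 95% interval of the fit and filled points for an adjusted p under 0.05. The left panel reaches 4.47 for Noct, the middle panel has 7 filled points below 0, and the right panel has Nr1d1, Nr1d2 and Cry2 below 0.

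The Period genes Per1 and Per2 encode repressors whose rapid induction links outside signals to the clock. Per1 had intensities of 176 at 0, 625 at 60 and 357 at 120 minutes in mutant cells, and 198, 624 and 348 in wild-type cells. The 60 minute arrays stood above all others, and the 120 minute arrays stood between them and the 0 minute arrays. Per1 rose 3.16-fold in the first hour (log2 1.66 ± 0.077, SE; adjusted p = 2.54e-07) and fell in the second (log2 -0.80 ± 0.077; adjusted p = 5.7e-05). On the linear scale 40.4% of its 60 minute rise was left at 120 minutes in mutant cells and 35.3% in wild-type cells. Per2 had 43.4, 237 and 153 in mutant cells and 56.6, 272 and 178 in wild-type cells at the same times. It rose more, 4.12-fold (log2 2.04 ± 0.0895; adjusted p = 1.84e-07), and fell by 0.58 ± 0.0895 on the log2 scale in the second hour (adjusted p = 0.00106, or 0.0564 with genotype left out of the fit), which left 56.3% of the rise in mutant and 56.6% in wild-type cells. At 120 against 0 minutes the log2 difference was 0.86 ± 0.077 for Per1 (adjusted p = 1.33e-05) and 1.46 ± 0.0895 for Per2 (adjusted p = 1.16e-06). The other probe sets of Per2 were weaker. In an unfiltered fit of all probe sets they differed by log2 0.38 and 0.40 in the first hour (adjusted p = 0.0791 and 0.0937), at mean intensities of 62.9 and 12.2, and the mean of all sets gave 0.94 for the first hour, -0.28 for the second and 0.66 for both together.

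The Per1 promoter has 2 annotated starts, and they are shown because Per1 is known to answer both to CLOCK with BMAL1 and to outside signals. Each line below gives the 250 bases before a start, 5′ to 3′ on the gene's strand, from RefSeq (GRCm38.p6). Capitals mark an E-box (CACGTG) and the hexamer AGGTCA bound by ROR and REV-ERB receptors, read on the other strand as TGACCT, at the upstream start, and a CRE core (TGACGT), a cAMP-response motif, at the other start.
Per1 upstream start, chr11:69098699-69098948, plus strand: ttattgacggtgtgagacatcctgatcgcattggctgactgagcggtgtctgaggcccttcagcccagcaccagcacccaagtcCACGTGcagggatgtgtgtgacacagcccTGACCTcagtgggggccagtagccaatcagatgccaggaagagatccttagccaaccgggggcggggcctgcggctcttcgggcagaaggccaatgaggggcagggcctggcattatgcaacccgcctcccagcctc
Per1 downstream start, chr11:69099902-69100151, plus strand: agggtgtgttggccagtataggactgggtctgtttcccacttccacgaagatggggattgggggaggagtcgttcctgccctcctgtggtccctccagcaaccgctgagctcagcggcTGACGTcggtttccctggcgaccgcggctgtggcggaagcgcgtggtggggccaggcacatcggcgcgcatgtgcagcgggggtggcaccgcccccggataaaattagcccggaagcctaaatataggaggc
The E-box begins 166 bases and the hexamer 137 bases before the upstream start, and the CRE core begins 132 bases before the other. Over 32851 mouse promoters the same window holds CACGTG in 6.02%, AGGTCA in 14.0% and TGACGT in 6.47%, on either strand. Promoters were on hand for 9 of the 10 genes, with 13 starts in all, and 8 starts held at least 1 of the 8 motifs searched. The share of all promoters that hold at least 1 of the 8 was not computed, so this count has no background beside it. None of the 13 held the full CRE TGACGTCA (1.55% of all promoters; it contains TGACGT), the D-boxes TTATGTAA (0.819%) or TTACGTAA (0.113%), or a CArG box (1.47%). A match is a run of letters in this window and says nothing of binding.

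The Cryptochrome genes encode the partners of PER in repression, and they took separate courses. Cry1 had 79.0, 121 and 186 at 0, 60 and 120 minutes in mutant cells, and 94.4, 128 and 211 in wild-type cells. It increased in both hours, by log2 0.46 ± 0.092 (SE; adjusted p = 0.00708) and then by 0.61 ± 0.092 (adjusted p = 0.000895), and stood 2.09-fold higher at 120 than at 0 minutes (adjusted p = 1.11e-05). The first of these calls was lost without the mutant array of 0 minutes (adjusted p = 0.0722) or of 60 minutes (0.0748), and with genotype left out of the fit (0.0963). Cry2 had 144, 261 and 114 in mutant cells and 181, 307 and 132 in wild-type cells. It rose 1.68-fold by 60 minutes (log2 0.75 ± 0.083; adjusted p = 0.00016) and then fell below its starting level. The log2 difference was -1.11 ± 0.083 for 120 against 60 minutes (adjusted p = 1.15e-05) and -0.36 ± 0.083 for 120 against 0 minutes (adjusted p = 0.00575). The last call was lost without the wild-type array of 0 minutes (adjusted p = 0.0752) and with genotype left out (0.12).

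The promoters of the 2 Cryptochrome genes are set side by side because the genes parted in the second hour. Each holds the E-prime box CACGTT, read here on the other strand as AACGTG, 79 bases before the Cry1 start and 166 bases before the Cry2 start. Cry1 also holds the E-box CACGTG, 60 bases before its start. CACGTT was found in 3.85% of all promoters. Capitals mark these motifs in the 250 bases before each start.
Cry1, chr10:85185055-85185304, minus strand: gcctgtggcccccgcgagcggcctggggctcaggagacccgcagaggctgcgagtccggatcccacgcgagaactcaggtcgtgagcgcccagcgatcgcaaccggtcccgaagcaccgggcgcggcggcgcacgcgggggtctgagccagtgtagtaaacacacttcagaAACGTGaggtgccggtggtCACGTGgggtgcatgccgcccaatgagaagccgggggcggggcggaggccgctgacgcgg
Cry2, chr2:92434070-92434319, minus strand: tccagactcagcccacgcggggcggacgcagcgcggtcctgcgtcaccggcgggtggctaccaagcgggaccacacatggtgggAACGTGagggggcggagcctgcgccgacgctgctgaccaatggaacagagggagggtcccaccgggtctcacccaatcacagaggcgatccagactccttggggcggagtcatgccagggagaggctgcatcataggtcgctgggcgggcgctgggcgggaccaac

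Of the activators of the loop, Arntl rose late and Clock gave no settled direction. Arntl, which encodes BMAL1, had 285, 287 and 464 at 0, 60 and 120 minutes in mutant cells, and 335, 327 and 500.0 in wild-type cells. The 0 and 60 minute arrays overlapped, with a log2 difference of -0.013 ± 0.0715 (SE; 95% interval -0.17 to 0.15; adjusted p = 0.916), and both 120 minute arrays stood above them. Arntl was 1.54-fold higher at 120 than at 60 minutes (log2 0.63 ± 0.0715; adjusted p = 0.000165) and differed by 0.61 ± 0.0715 from 0 minutes (adjusted p = 8.21e-05). A dim second probe set (mean intensity 21.9) gave -0.064 for the second hour, and the mean of both sets gave 0.28 for the second hour and 0.30 against 0 minutes. Clock encodes the partner of BMAL1. Its brightest probe set had 299.6, 359.8 and 368 in mutant cells and 308, 367 and 393 in wild-type cells. It was higher by log2 0.25 ± 0.070 at 60 against 0 minutes (adjusted p = 0.0369) and by 0.31 ± 0.070 at 120 against 0 minutes (adjusted p = 0.00493), with 0.063 ± 0.070 between 60 and 120 minutes (adjusted p = 0.588). The 4 probe sets of Clock disagreed. For the first hour the other 3 gave -0.43, -0.0069 and -0.54 (adjusted p = 0.0371, 0.985 and 0.0344 in the unfiltered fit of all probe sets, at mean intensities of 106, 73.4 and 26.6), and their mean with the brightest set gave -0.18. The first-hour call of Clock was also lost in 4 of the 6 omissions of an array, those of 0 and of 60 minutes (adjusted p from 0.109 to 0.211). For 120 against 0 minutes the mean of the 4 sets gave 0.11 (adjusted p = 0.22) and for the second hour 0.30 (adjusted p = 0.0178).

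The REV-ERB genes were the members that fell without an earlier rise. Nr1d1 had 75.7, 74.6 and 20.2 at 0, 60 and 120 minutes in mutant cells, and 70.3, 69.6 and 22.4 in wild-type cells. The first 2 times lay together (log2 -0.015 ± 0.12, SE; 95% interval -0.28 to 0.25; adjusted p = 0.947), and the 120 minute arrays lay below the filter level of 39.2. At 120 against 60 minutes the log2 difference was -1.24 ± 0.12 (adjusted p = 5.72e-05), and against 0 minutes -1.25 ± 0.12 (adjusted p = 2.14e-05). The size of this fall depended on the offset: against 0 minutes it was -1.73 at an offset of 1 and -0.68 at 64. Nr1d2 had 1110.4, 1068 and 726 in mutant cells and 1271, 1196 and 747 in wild-type cells. It differed by -0.071 ± 0.062 in the first hour (95% interval -0.21 to 0.068; adjusted p = 0.462) and fell by 0.61 ± 0.062 on the log2 scale in the second (adjusted p = 8.41e-05). Its net difference was -0.68 ± 0.062 (adjusted p = 1.69e-05). A dim second set of Nr1d2 (mean intensity 10.9) gave -0.22 for the second hour.

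The Nr1d1 promoter is shown as that of the gene with the largest fall in the second hour among the 10, at the offset of 16. Capitals mark the E-prime box CACGTT, read on the other strand as AACGTG, 28 bases before the start.
Nr1d1, chr11:98775378-98775627, minus strand: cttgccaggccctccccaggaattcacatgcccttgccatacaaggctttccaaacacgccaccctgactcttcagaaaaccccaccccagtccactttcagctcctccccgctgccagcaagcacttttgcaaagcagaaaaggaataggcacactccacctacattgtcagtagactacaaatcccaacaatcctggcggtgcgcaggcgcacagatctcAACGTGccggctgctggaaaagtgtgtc
The hexamer AGGTCA was found in 4 of the 13 windows, before starts of Per1, Clock, Nr1d2 and Nfil3, against 14.0% of all promoters. The windows of Arntl and Noct held none of the 8 motifs.

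The output genes had the largest rises among the 10. Nfil3, which encodes E4BP4, a repressor at D-boxes, had 54.3, 420.4 and 287 at 0, 60 and 120 minutes in mutant cells, and 71.3, 431 and 343 in wild-type cells. It rose 5.63-fold in the first hour (log2 2.49 ± 0.090, SE; adjusted p = 4.08e-08). In the second hour it differed by -0.42 ± 0.090 (adjusted p = 0.00699), a call lost without the mutant array of 60 minutes (adjusted p = 0.108) and with genotype left out (0.127). At 120 minutes it stood 4.21-fold above 0 minutes (adjusted p = 1.2e-07), with 63.7% of the rise left in mutant and 75.7% in wild-type cells. Noct encodes Nocturnin, a rhythmic phosphatase of nicotinamide cofactors in the deadenylase family. It had 75.9, 1884 and 1285 in mutant cells and 50.2, 1556 and 1142 in wild-type cells. The smallest of its 60 and 120 minute values was far above the largest 0 minute value. The fold was 22.2 for 60 against 0 minutes and 15.7 for 120 against 0 minutes (log2 3.98 ± 0.081; adjusted p = 1.06e-09). The size depended on the offset: the log2 difference against 0 minutes was 4.77 at 60 and 4.27 at 120 minutes with an offset of 1, and 3.81 and 3.33 with an offset of 64. Noct differed by -0.49 ± 0.081 in the second hour (adjusted p = 0.00145, or 0.152 with genotype left out). The probe set that Noct shares with Sgip1 and Cog6 had 6459, 6261 and 5733 in mutant cells and 6464, 6761 and 6257 in wild-type cells, with no such rise.

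Between genotypes Noct and Cry2 differed. Of the 10, 1 was higher and 1 lower in mutant than in wild-type cells, against 10.4% and 8.92% of all genes tested, so the share that passed was near that of all genes. Noct was higher in mutant cells at each time, by log2 0.47 at 0, 0.27 at 60 and 0.17 at 120 minutes. The fit gave 0.31 ± 0.066 (SE; adjusted p = 0.0113), a call lost without time as the block that pairs the arrays (adjusted p = 0.997). Without the mutant array of 0 minutes the difference was 0.22 with an adjusted p of 0.0521, just outside the threshold, and without the wild-type array of 0 minutes it was also 0.22 with an adjusted p of 0.0494, just inside. Cry2 was lower in mutant cells at each time, by -0.30, -0.22 and -0.18, and the fit gave -0.24 ± 0.068 (adjusted p = 0.0369). That call was lost without any of the 4 arrays of 0 or 60 minutes (adjusted p from 0.11 to 0.207), with no filter (0.0633), with each probe set above the filter level as a row of its own (0.0744) and without the block (0.965). Both arrays of a time form 1 pair in the genotype estimate, so omitting either gives the same log2 difference, and only the adjusted p can vary. The 3 endothelial markers summed to between 84.8 and 97.8 in mutant cells, against 45.5 to 55.8 in wild-type cells, with Pecam1 and Kdr below the filter level. Their part in the genotype differences was not tested.

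Of the other genes, Per2, Nfil3, Arntl, Cry1, Nr1d2 and Clock had lower values in mutant cells at all 3 times and did not pass. Their log2 differences were -0.23 for Per2 (adjusted p = 0.0569), -0.20 for Nfil3 (0.0923), -0.17 for Arntl (0.0711), -0.15 for Cry1 (0.192), -0.13 for Nr1d2 (0.101) and -0.052 for Clock (0.573). Per2 passed under quantile normalization (adjusted p = 0.0413) and without the trend in shrinkage (0.0475). Per1 and Nr1d1 changed sign between times, with fitted differences of -0.040 (95% interval -0.18 to 0.10) and 0.028 (95% interval -0.19 to 0.25). The median log2 difference of the 10 genes was -0.14, with 8 below 0. All genes tested had a median of 0.015, with 5000 of 10916 below 0. The share of all genes that were lower in mutant cells at all 3 times was not computed.

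**Figure D3:**
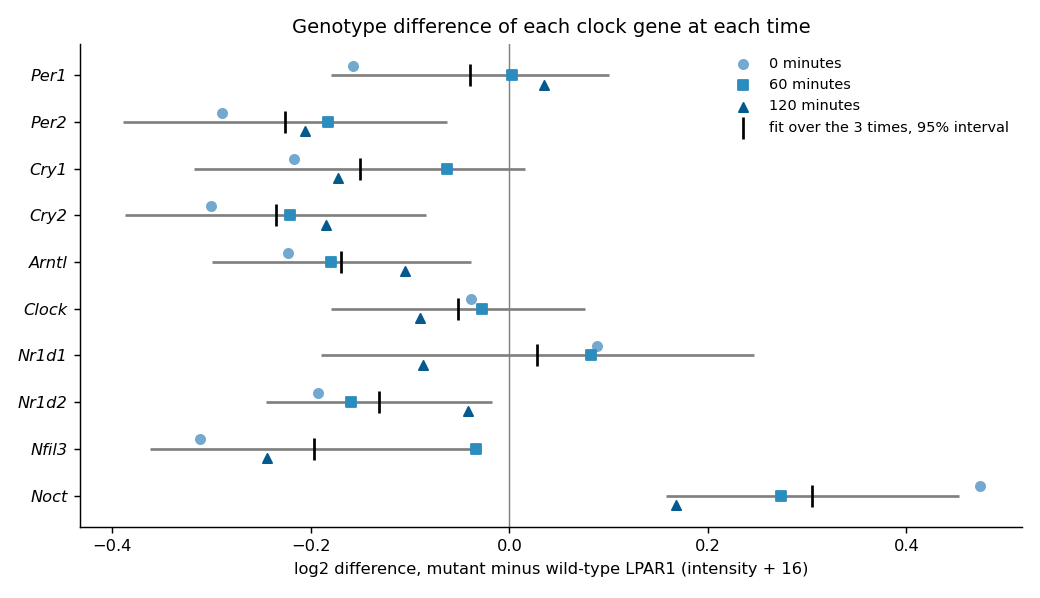
Log2 difference of mutant minus wild-type LPAR1 (x axis, intensity + 16) for each clock gene at 0 (circles), 60 (squares) and 120 minutes (triangles), with the fitted difference (black tick) and its 95% interval (gray bar). Noct lies right of 0 at all 3 times, 7 genes lie left of 0 at all 3 times, and Per1 and Nr1d1 lie on both sides.

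How alike the 2 genotypes ran in time could be described but not tested, since the fit leaves no residual degrees of freedom for it. The gaps between genotypes given below are themselves the residual error of that fit, before its shrinkage towards all genes. Over the first hour Per1 rose by log2 1.74 in mutant and 1.58 in wild-type cells. Per2 rose by 2.09 in mutant and 1.99 in wild-type cells. Nfil3 rose by 2.63 in mutant and 2.36 in wild-type cells, the largest gap among the 10 in that hour, at 0.28. Noct rose by 4.37 in mutant and 4.57 in wild-type cells. In the second hour Nr1d1 changed by -1.32 in mutant and -1.16 in wild-type cells, and Nfil3 by -0.52 and -0.31. The median absolute gap between genotypes was 0.093 for the first hour, 0.090 for the second and 0.12 for the net change, against 0.11, 0.12 and 0.11 over all genes tested. In none of the 3 did any of the 10 genes lie past the 95th percentile of absolute gaps over all genes tested, which was 0.38, 0.45 and 0.40. The widest net gap was that of Noct, with a log2 change of 3.82 in mutant and 4.13 in wild-type cells, and its level at 0 minutes was 75.9 in mutant against 50.2 in wild-type cells.

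A further 30 clock-linked genes were listed, also with earlier results of these data known, of which 28 had a probe set of their own and 21 were tested. The genes Rorb, Npas2, Arntl2, Bhlhe41, Hlf, Fbxl21 and Btrc lay below the filter level. In the first hour 5 of the 21 rose and 3 fell, against 7.34% higher and 10.7% lower of all genes tested, and their median log2 difference was -0.030. Bhlhe40, a repressor that competes for E-boxes, rose 2.14-fold (log2 1.10 ± 0.072, SE; adjusted p = 3.77e-06). The mitotic kinase gene Wee1, a known E-box target, rose by 0.69 ± 0.070, and the deubiquitinase gene Usp2 by 0.52 ± 0.098. Timeless, a replication-fork gene, Tef, a D-box activator, and Per3, the third Period gene, fell, with log2 differences of -0.40 ± 0.12, -0.35 ± 0.082 and -0.31 ± 0.080 (adjusted p from 0.0154 to 0.0371). Per3 thus differed in sign from Per1 and Per2 in the first hour, though not in the second. It had 299, 239 and 122 at 0, 60 and 120 minutes in mutant cells, and 295, 232 and 128 in wild-type cells. In the unfiltered fit of all probe sets, the first-hour calls of Timeless and Per3 were lost (limma, adjusted p = 0.0627 and 0.059). The other Timeless set gave -0.27 (adjusted p = 0.278), and the dimmer Per3 sets gave from -1.07 to -0.015.

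In the second hour 3 of the 21 rose and 9 fell, against 10.2% higher and 15.0% lower of all genes tested, with a median of -0.18. Ppargc1a, a coactivator of mitochondrial genes that also acts on Arntl, changed most, with a log2 difference of -1.52 ± 0.11 (adjusted p = 1.08e-05). Its arrays read 297, 291 and 74.8 in mutant cells and 227, 181 and 64.9 in wild-type cells. Dbp, a D-box activator and a direct target of CLOCK and BMAL1, differed by -1.25 ± 0.083 (adjusted p = 5.25e-06), with 872, 777 and 281 in mutant cells and 877, 724 and 334 in wild-type cells. Rora, the receptor that activates Arntl where REV-ERB represses it, differed by -0.90 ± 0.089, Wee1 by -0.87 ± 0.070 and Per3 by -0.84 ± 0.080. Usp2 rose further, by 1.19 ± 0.098 (adjusted p = 2.13e-05), with 85.8, 149 and 332 in mutant cells and 117, 153 and 400.2 in wild-type cells. Over the 2 hours 5 of the 21 rose and 10 fell, against 16.2% higher and 30.8% lower of all genes tested. The largest net differences among those that passed were Usp2 at 1.71 ± 0.098, Ppargc1a at -1.69 ± 0.11, Dbp at -1.46 ± 0.083, Per3 at -1.15 ± 0.080, Rora at -0.95 ± 0.089 and Tef at -0.83 ± 0.082. The D-box activators Dbp and Tef were therefore lower at 120 than at 0 minutes, while their antagonist Nfil3 was higher.

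Dimmer probe sets of these genes did not all follow. For Per3 in the second hour the 5 other sets gave from -0.26 to 0.12, for Tef over the whole period the 2 others gave -0.78 and -0.028, and for Wee1 in the first hour the other gave 0.35. For Ppargc1a in the second hour the 4 others gave from -1.34 to -1.28, for Dbp the other gave -1.03 and for Usp2 1.09. For Rora in the second hour the other sets gave from -0.93 to 0.28, and those above 0 had mean intensities of 10.1 and 12.5. Between genotypes 1 of the 21 was higher and 2 were lower in mutant cells, against 10.4% and 8.92% of all genes tested, so the share higher was below, and the share lower near, that of all genes. Ppargc1a differed by 0.39 ± 0.092 (adjusted p = 0.0166), Rora by -0.47 ± 0.073 (0.00207) and Bhlhe40 by -0.31 ± 0.059 (0.00607). The other Ppargc1a sets gave from 0.18 to 0.36 between genotypes, and the other Rora sets from -0.59 to 0.12. The median log2 difference of the 21 genes was -0.0036, against 0.015 over all genes tested.

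**Figure D4:**
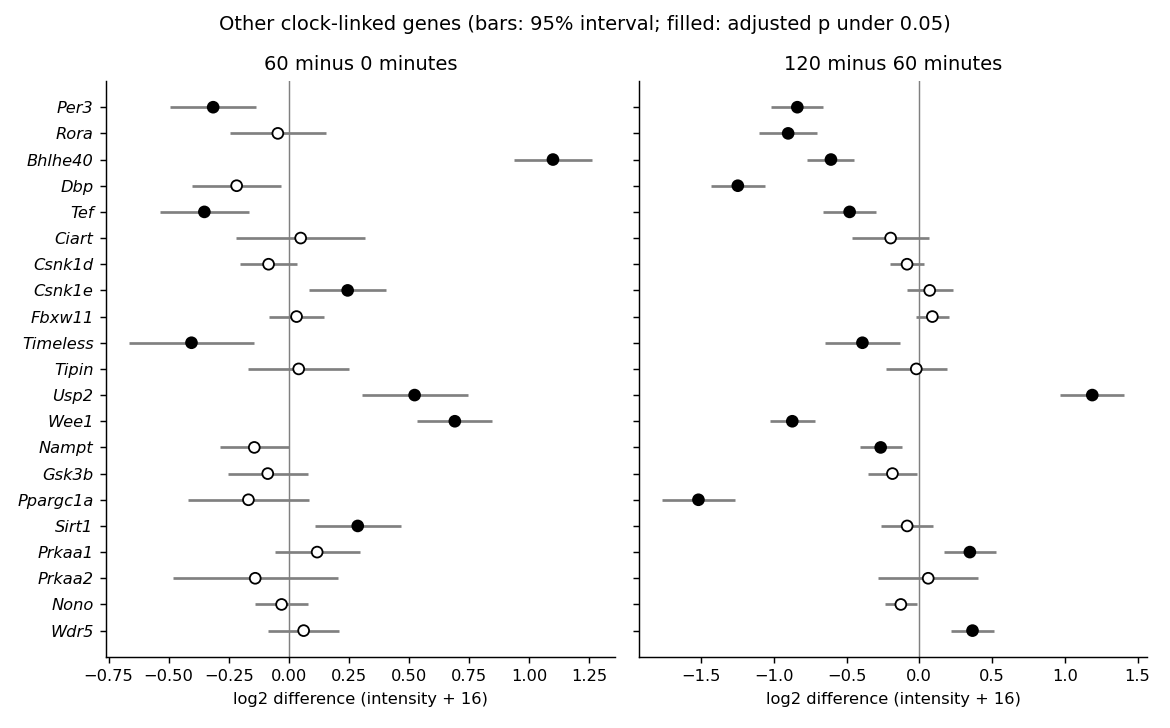
Log2 difference (x axis, intensity + 16) for the 21 tested genes of the wider clock list at 60 minus 0 minutes (left) and 120 minus 60 minutes (right), over both genotypes, with bars for the 95% interval and filled points for an adjusted p under 0.05. Bhlhe40 leads on the left at 1.10, and Ppargc1a (-1.52), Dbp (-1.25) and Usp2 (1.19) stand apart on the right.

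The profiles of the clock genes over the 6 arrays were set against 978 other genes that ranged over at least 1 log2 unit. Pearson's r describes shape only, since the 6 arrays share 3 times. Closest to Per1 were Plk2 (r = 0.99956), Stk40 (0.997) and Csrnp1 (0.996), and closest to Per2 were Ccn2 (0.999), Ptgs2 (0.998) and Npas4 (0.996). Nfil3 ran with Spry2, Fosl2 and Nr4a1 (0.998, 0.998 and 0.997), and Noct with Maff, Epha2 and Nab2 (0.999, 0.998 and 0.997). Cry1 ran with Akap2, Pdgfa and Pmepa1 (0.997, 0.996 and 0.996), and Nr1d1 with Glcci1, Kdm6a and Cblb (0.998, 0.997 and 0.997). Cry2 had less close neighbours, Rusc2 (0.992), Ier2 (0.981) and Klf7 (0.974). Arntl, Clock and Nr1d2 ranged over less than 1 unit (0.78, 0.37 and 0.80) and were not compared in this way.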

How the data were processed

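RNA of NIH3T3 cells was measured on 6 arrays. The authors deposited 1 intensity per probe set and array. The submitters' processing notes name PLIER and version 1.14.3.1 of Affymetrix Power Tools; background correction and scaling are not given in the sources used here. Array medians lay between 34.1 and 37.3, and the number of arrays limits the precision.

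Probe sets paired with 1 gene by the platform annotation were named through RefSeq gene identifiers (34754 of 34945 matched). Values were used as log2(intensity + 16) and fitted with limma 3.58.1 in R 4.3.3 (genotype plus time, eBayes with trend, 2 residual degrees of freedom, prior 7.78), with two-sided tests and Benjamini-Hochberg adjustment over 10916 genes. Time pairs the arrays of the genotypes, by the labels: deviations from the genotype mean correlated across genes between genotypes at r = 0.911, 0.756 and 0.871 for 0, 60 and 120 minutes, which includes the shared time response. The procedure was tested on simulated data for the genotype and the first-hour contrast: of 200 genes changed by log2 0.5 among 10916, 97.5% and 95% were called, with 12 and 13 false calls. The simulated noise was independent between arrays and drawn with the moderated variances of the fit. It held no genotype-specific time response, so recovery in the real data may be lower.

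All 10 clock genes were named; of 30 further clock genes, up to 6 per contrast that passed with the largest differences; and for each clock gene ranging over at least 1 log2 unit, the 3 genes of highest r. Members and lists were chosen with earlier results of these data known. Alternatives were offsets, filters, quantile normalization, probe-set summaries, shrinkage without trend, fits without time or genotype, and omission of each array.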

Additional observations from a re-analysis of the deposited data

Results flagged for a closer look

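Arntl was the clock gene whose first-hour change had opposite signs in the genotypes, with a log2 difference of 0.0087 in mutant and -0.035 in wild-type cells between 60 and 0 minutes. The difference was not tested, and both values are smaller than the SE of the fitted change, 0.0715.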

How the results depend on the processing

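The number of clock genes that passed between genotypes was 2. It was 1 with no filter and with each probe set as its own row, and 0 with no replicate block (time point left out of the pairing). Under quantile normalization and without the trend it was 3, and it ranged from 0 to 2 when 1 array was left out. With genotype left out of the fit, 5 passed in the first hour, 6 in the second and 9 over the whole period. With 1 array left out, the first hour gave from 5 to 7, the second from 8 to 9 and the whole period from 9 to 10, and no other setting moved those counts by more than 1.5 times. Signs turned only for differences near 0 or for Clock: in the first hour Arntl read 0.0055 under quantile normalization and 0.017 as the mean of its probe sets, Nr1d1 read 0.064 under quantile normalization, and Clock read -0.18 as the mean of its sets. With 1 array left out, Arntl ranged from -0.054 to 0.027 and Nr1d1 from -0.060 to 0.031 in the first hour, and between genotypes Per1 ranged from -0.078 to 0.019 and Nr1d1 from -0.0024 to 0.085. The cause was not tested. Under the 60th percentile filter Per2, Cry1 and Nr1d1 were not tested. Of all genes, 89 in place of 2112 passed between genotypes with no replicate block, 1397 without the trend, and from 1373 to 2163 with 1 array left out; with genotype left out, 585 in place of 1969, 1007 in place of 2746 and 2772 in place of 5130 passed in the first hour, the second hour and the whole period. With each probe set as its own row, 3763, 4491 and 8945 of 27022 sets passed in those contrasts, and leaving out 1 array gave from 1156 to 2516 genes in the first hour.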
